A study of Mus musculus with 16 samples.

Results

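On a mouse expression array, 16194 probes carried no gene name and were known only by a position in the mm9 genome and a strand letter, F or R. Among them, 294 probes were at least 2-fold higher or lower in ground-state embryonic stem cells than in embryonic stem cells kept in serum, and they are described here. They were chosen by their measured levels: a probe had to be well above background, by the scanner software's own mark, on all 4 LIF_serum arrays or on all 8 ground-state arrays. The 2i_LIF mean and the 2iSB_LIF mean both had to differ from the LIF_serum mean by at least 1 on the log2 scale, in the same direction. The EpiSC mean could not lie 1 or more above, or 1 or more below, all 3 other means. Of the 16194 probes, 5234 passed the background condition, 547 of these passed the difference, and 253 of the 547 left through the EpiSC condition. The 294 that remained were 5.62% of the 5234, with 135 higher in ground state (2.58%) and 159 lower (3.04%). The same rule took 1799 of 18526 gene-named probes (9.71%), with 675 higher (3.64%) and 1124 lower (6.07%). Since these values chose the probes, levels in LIF_serum, EpiSC and ground state are given as a description, without a test.

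RNA came from 16 cell lines of 129/Ola mice, 4 lines per group and 1 single-colour array per line. LIF_serum lines were derived from the embryo before implantation, grown in serum with the cytokine LIF and labelled naive, at passage 23 to 26. The 2i_LIF lines had the same origin and were grown in 2i with LIF, and the 2iSB_LIF lines also received SB431542, which blocks signalling by the TGF-beta, Activin and Nodal receptors. Both are labelled ground state, at passage 22 to 24 and 17 to 24. EpiSC lines came from the epiblast of the E6.5 embryo, were cultured with bFGF and Activin A, and carry the label primed, at passage 24 to 28. No allele or transgene is named in the labels for any line. Among the 4 LIF_serum lines, 2 are described with the code LS (arrays 1 and 2, slide 1) and 2 with LSFF (arrays 3 and 4, slide 2), and the meaning of the codes is not given. Slide 1 also held 2i_LIF arrays 1, 2 and 3 and 2iSB_LIF arrays 1, 2 and 4. Slide 2 held 2i_LIF array 4, 2iSB_LIF array 3 and all EpiSC arrays.

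2i is a pair of kinase inhibitors that block MEK, which passes on differentiation signals from FGF, and GSK3, which restrains Wnt signalling. Cells under 2i are known for even levels of pluripotency factors and for low levels of lineage genes compared with cells in serum. Transcripts that arise between annotated genes include long noncoding RNAs, precursors of small RNAs, transcripts started at enhancers and unannotated ends of genes. Several long noncoding RNAs of embryonic stem cells are known to influence pluripotency or differentiation, often from low copy numbers. The probes were designed to such position-named transcripts, and whether each lies between genes could not be checked, since no mm9 annotation was used here. Probe and target sequences are not given in the files used here, so the regions are shown by position.

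Levels are log2 processed signal less the 75th percentile of the array, so 0 equals that percentile and a step of 1 is a 2-fold difference. The share of position-named probes well above background was 42.6% to 52.0% on slide 1 and 31.7% to 47.7% on slide 2, where the LIF_serum and ground-state arrays had 31.7% to 36.3%. No probe was saturated. The 2 LIF_serum pairs stood apart: 27.9% of the 5234 probes differed by at least 1 between the pair on slide 1 and the pair on slide 2. Slide and code coincide in LIF_serum and cannot be told apart. For several members the difference is therefore also given within each slide.

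The 135 probes higher in ground state were faint in serum. Their median level was −4.0 in LIF_serum, −3.16 on EpiSC arrays, −2.42 in 2i_LIF and −2.46 in 2iSB_LIF. The 159 lower probes had medians of −1.92, −2.49, −3.72 and −3.66 in the same order. Over all 5234 probes the medians were −2.33, −2.90, −2.17 and −2.18, and the median difference of ground state from LIF_serum was 0.17. The difference, taken as the mean of the 2i_LIF and 2iSB_LIF differences from LIF_serum, had a median of 1.48 in the higher probes (range 1.06 to 3.89) and of −1.61 in the lower ones (−1.0 to −4.79). These are differences as measured, and the outermost include signals below background. Among the 56 higher and 83 lower probes measured on all 12 LIF_serum and ground-state arrays, 3 and 7 reached 2 or more in size. In 206 of the 294 probes, 94 higher and 112 lower, no LIF_serum array overlapped the 8 ground-state arrays, against 635 of the 5234 probes (12.1%), and the rule itself favours such probes. The median SD between arrays was 0.46 in LIF_serum, 0.28 on EpiSC arrays, 0.57 in 2i_LIF and 0.50 in 2iSB_LIF.

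**Figure D1:**
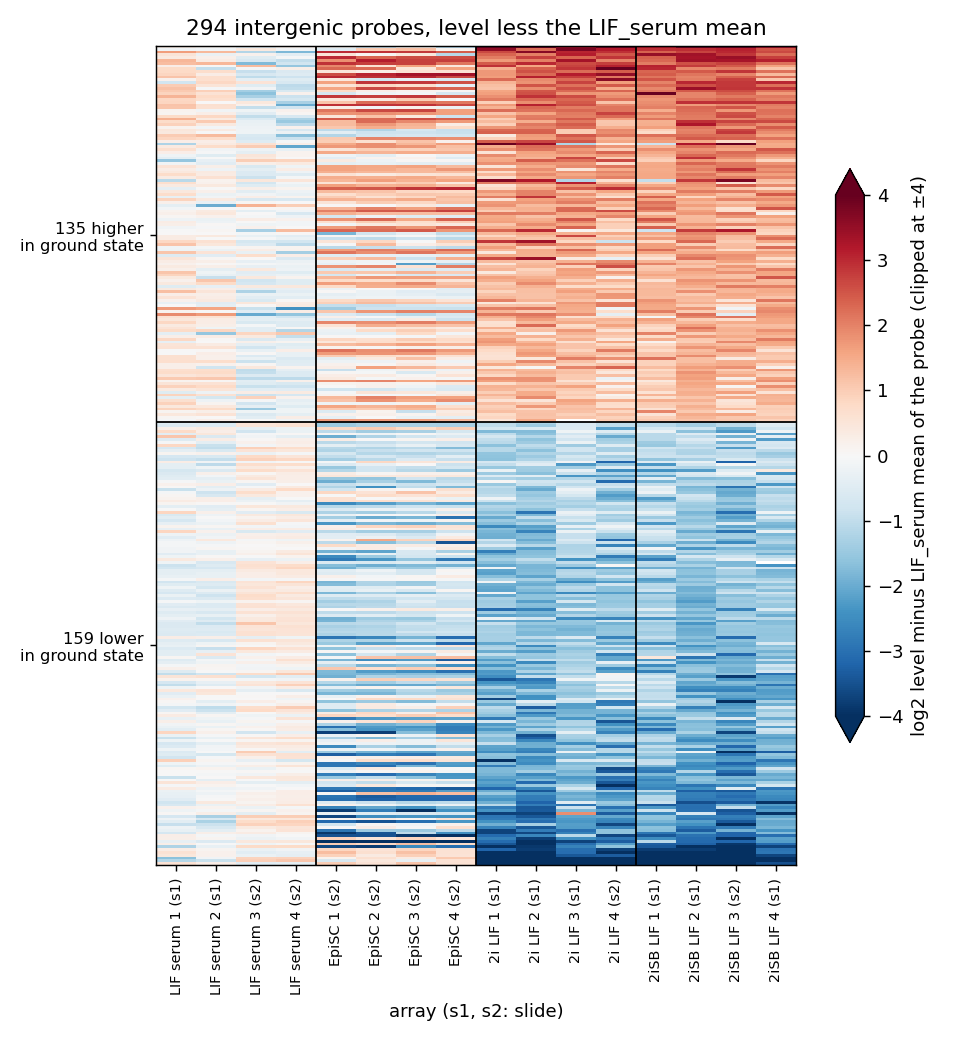
Level of each of the 294 probes (rows, ordered by difference) on each of the 16 arrays (columns, with slide s1 or s2), less the LIF_serum mean of that probe, on the log2 scale with colours ending at ±4. The 135 upper rows are mostly red and the 159 lower rows mostly blue across the 8 ground-state arrays, with single arrays of the other colour in some rows, while EpiSC columns hold rows of either kind.

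On the threshold itself, the probes just inside were A_30_P01025181 (chr7:67119535-67120213, strand R, differences of −1.15 in 2i_LIF and −1.0 in 2iSB_LIF) and A_30_P01017680 (chr10:83181374-83249774, strand F, −1.0 and −1.0). Just outside lay A_30_P01031329 (chr7:67111261-67120697, strand F, −1.07 and −0.99) and A_30_P01024535 (chr16:64786250-64814249, strand R, 0.99 and 1.30). Dim signal also limited the members. All 12 LIF_serum and ground-state arrays were well above background for 139 probes, 56 higher and 83 lower. For 19 probes, 10 higher and 9 lower, no array of the dimmer side was. Bounds are given for those of them named below, while medians and ranges hold their differences as measured. The remaining 69 higher and 67 lower probes were measured on only some arrays, so their differences are as measured with part of the signal near background.

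The 294 probes lay in 174 named regions. Regions on the same strand that overlapped or lay within 10 kb were joined into 154 loci, 83 higher and 71 lower in ground state, and no locus held probes of both directions. A single member stood for 96 loci, while 32 loci with 3 or more members held 146 of the 294 probes (12 higher loci with 51 probes, 20 lower loci with 95). Probes of 1 locus lie close together on 1 strand and are not counted as independent. Whether they measure the same transcript was not tested. At 10 higher and 17 lower loci with at least 2 members, every same-strand probe that passed the background condition was a member.

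Other probes at these loci that passed the background condition, but were not members, were read beside them as a description. A further 404 same-strand probes did not pass and are not counted. The probes read here passed the same background condition as the members. They may include some that left only through the EpiSC condition. On the same strand, 156 of 180 other probes at higher loci lay above LIF_serum in ground state (median difference 0.64), and 97 of 140 at lower loci lay below it (median −0.28). Of all 5234 probes, 64.7% lay above 0. On the opposite strand, 85 of 104 probes at higher loci were above LIF_serum (median 0.52), while at lower loci only 26 of 77 were below it (median 0.16). Within 100 kb on either strand, 12 neighbourhoods held 2 or more loci, and in 11 of them all members moved one way. Of the 12, 9 held members on both strands, some of them in a region with probes on F and R. No such count over all position-named probes is given, so nothing is read from these numbers. The exception, at chr4:124127144-124334840, held 1 higher and 1 lower probe.

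Among loci with 3 or more members, the largest median fall was at chr15:32167516-32174427, strand R, where 8 of 10 probes were members and the other probes did not pass the background condition. The median level of the 8 probes was −1.22, −1.54, −2.0 and −1.97 on LIF_serum arrays 1 to 4 and −0.68, −1.11, −0.66 and −1.06 on the EpiSC arrays. Their ground-state medians were −5.17, −5.13, −4.17 and −4.62 in 2i_LIF and −5.28, −5.18, −5.98 and −4.29 in 2iSB_LIF. All ground-state arrays lay below all others, by a median difference of −3.44 as measured, part of it on signals near background, and the EpiSC arrays were the highest of the 16. Its probe A_30_P01033043 was at −1.33 ± 0.49 (SD, n = 4) in LIF_serum. It was well above background on no 2i_LIF array and on 1 2iSB_LIF array. In 2i_LIF its level was at least 13.9-fold lower than in LIF_serum, with dim signals held at the array's background floor. That floor is the lowest signal marked well above background on the array, and unmarked signals can lie above it. Here and below, "at least" holds for this choice of floor and is not a strict limit. The floors were −5.29 to −4.97 on the 2i_LIF arrays and −6.17 to −4.44 over all 16 arrays. A second probe there, A_30_P01023130, was well above background on no ground-state array. It was at least 4.57-fold lower in 2i_LIF and 4.74-fold in 2iSB_LIF. The only opposite-strand probe that passed did not go the same way.

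Another pair of probes fell to background in both ground-state media. A_30_P01032355 (chr10:93975406-93977476, strand R) was at −3.83, −3.61, −1.75 and −1.63 in LIF_serum and at −3.34, −2.27, −2.99 and −2.13 on EpiSC arrays, and A_30_P01020369 (chr2:94082835-94101939, strand R) was at −4.25, −2.74, −1.73 and −1.70 and −2.48, −1.98, −2.28 and −1.57. Neither was well above background on any ground-state array. The chromosome 10 probe was at least 5.36-fold lower in 2i_LIF and 5.57-fold in 2iSB_LIF, and the chromosome 2 probe at least 5.73-fold and 5.95-fold. In both, LIF_serum arrays 3 and 4 were brighter than arrays 1 and 2. Although they lie on different chromosomes, their levels had a Pearson r of 0.992 over the 16 arrays, which fall into bright and dim groups, and differed by at most 0.86 on any array. This pair was compared after its values had been seen. At the chromosome 10 region both same-strand probes that passed the background condition were members, with a median difference of −3.63. At the chromosome 2 region 2 same-strand probes passed, with a median difference of −2.44 against −4.70 for the member. The other probe that passed there was not a member and fell far less.

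Among probes measured on all 12 arrays, the largest fall was at chr10:81816994-81863610, strand F, where all 4 probes were members. Probe A_30_P01026481 was at −0.47, −0.93, 0.08 and 0.20 in LIF_serum and −0.28, 0.03, −0.24 and 0.39 on EpiSC arrays. In 2i_LIF it was at −2.93, −3.68, −2.53 and −2.92, and in 2iSB_LIF at −1.91, −3.20, −3.05 and −2.11. Ground-state arrays lay below all LIF_serum and EpiSC arrays, with a difference of −2.51 (−2.02 within slide 1, −3.12 within slide 2). The brightest of the named falls, A_30_P01024606 at chr5:35975265-35982561, strand F, was at 4.48, 4.92, 5.15 and 5.21 in LIF_serum. Its levels were 2.59, 2.13, 2.97 and 2.80 in 2i_LIF and 3.75, 2.12, 2.09 and 2.32 in 2iSB_LIF, a difference of −2.34 (−2.05 within slide 1, −2.74 within slide 2), and EpiSC arrays were also low, at 1.92, 1.69, 1.81 and 1.81. 2iSB_LIF array 1 was the highest of its group, and no ground-state array reached the LIF_serum arrays.

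The locus with the most members was chr17:26911032-26917047, strand F, where all 13 probes qualified. Its median level was 1.07, 0.93, 2.19 and 2.10 in LIF_serum, 0.23, −0.21, −0.15 and 0.10 in 2i_LIF and 0.17, −0.39, −0.05 and 0.03 in 2iSB_LIF, with EpiSC at 0.34, 0.34, 0.70 and 0.53. The fall had a median of −1.60 over the probes, −1.05 within slide 1 and −2.08 within slide 2, and LIF_serum arrays 3 and 4 were brighter than arrays 1 and 2. All 3 opposite-strand probes that passed there were also lower, and 1 of them was a member. At chr4:11893711-11931875, strand F, all 8 probes were members, with medians of −1.84, −1.63, −1.73 and −1.52 in LIF_serum and −1.93, −1.47, −1.80 and −1.29 on EpiSC arrays against −3.06, −3.91, −2.94 and −2.55 in 2i_LIF and −2.38, −4.08, −3.83 and −3.59 in 2iSB_LIF. Here LIF_serum and EpiSC arrays overlapped and the ground-state arrays lay apart below them.

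Both of the next lower loci kept EpiSC with serum. At chr8:87504644-87514107, strand R, 7 of 8 probes were members, and their medians were −2.04, −2.38, −1.99 and −2.04 in LIF_serum and −3.04, −2.25, −2.27 and −2.45 on EpiSC arrays. Ground-state medians were −5.69, −4.79, −3.62 and −3.56 and −3.97, −4.88, −5.18 and −5.03 in 2i_LIF and 2iSB_LIF, and none overlapped the other arrays. Those of 2i_LIF array 1 and 2iSB_LIF array 3 lay below their background floors of −5.29 and −4.94. Probe A_30_P01024362 at this locus differed in that EpiSC was low as well, at −6.29 ± 1.27 (SD, n = 4), and 1 EpiSC array was well above background. On no ground-state array was this probe well above background. It was at least 2.91-fold lower in 2i_LIF and 2.96-fold in 2iSB_LIF than in LIF_serum. At chr1:138528250-138622719, strand F, 2 loci within 94.5 kb held 9 lower members and no higher one, with a median difference of −1.51. At the first locus all 7 same-strand probes that passed the background condition were members. At the second, chr1:138592780-138622719, only 2 of 8 were. All 8 were lower there, with a median difference of −0.38 against −2.16 for the 2 members. Probe A_30_P01032405 there was at −0.77, −0.70, −1.09 and −0.81 in LIF_serum, −1.39, −0.49, −0.79 and −0.87 on EpiSC arrays, −2.60, −2.60, −2.38 and −4.39 in 2i_LIF and −3.48, −3.27, −3.09 and −1.66 in 2iSB_LIF.

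At other lower loci EpiSC was as low as ground state. Probe A_30_P01029666 at chr13:98062189-98066613, strand F, was at −1.24, −1.76, −1.69 and −1.55 in LIF_serum, and its means were −4.63 on EpiSC arrays, −3.96 in 2i_LIF and −3.67 in 2iSB_LIF. Probe A_30_P01026449 at chr6:39205913-39248468, strand R, was at −1.41, −1.29, −1.20 and −1.09 in LIF_serum and at means of −3.92, −3.20 and −3.47 in the other groups. In both, every LIF_serum array lay above every array of the ground state. Probe A_30_P01018142 at chr5:106982442-107045717, strand R, fell by 1.89 with EpiSC at the serum level.

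The largest rise as measured was that of A_30_P01022605 at chr11:96112907-96125798, strand F, a probe singled out after its values were seen, since it was not well above background on 1 LIF_serum array. It was at −4.53, −4.74, −5.33 and −4.64 in LIF_serum and −4.69, −5.70, −4.65 and −5.96 on EpiSC arrays, and at −0.75, −0.59, −1.36 and −0.35 in 2i_LIF and −1.57, −0.85, −0.54 and −1.37 in 2iSB_LIF. Every ground-state array lay above every other array, by 3.89 on average over LIF_serum (3.55 within slide 1 and 4.54 within slide 2). Of 6 same-strand probes that passed the background condition in this region, it was the only member. All 6 were higher, with a median difference of 1.24. Among probes measured on all 12 arrays, A_30_P01018579 at chr5:143200557-143204033, strand R, rose most. Its levels were −2.48, −2.66, −3.33 and −2.92 in LIF_serum, −0.81, −0.12, −0.51 and 0.00 in 2i_LIF and −0.47, 0.46, 0.62 and −0.07 in 2iSB_LIF, a difference of 2.74 (2.32 within slide 1, 3.43 within slide 2), and EpiSC shared the ground-state level, at 0.14, −0.53, −0.24 and −0.23. Probe A_30_P01020518 at chr9:78104935-78116974, strand F, was at −3.50, −2.99, −4.03 and −4.14 in LIF_serum, −1.39, −1.77, −1.41 and −0.05 in 2i_LIF and −1.15, −1.61, −0.95 and −2.60 in 2iSB_LIF, with EpiSC at −3.24, −4.42, −3.99 and −4.26. Its rise of 2.30 was 1.59 within slide 1 and 3.59 within slide 2.

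Higher loci with several members also divided by EpiSC. At chr17:45524689-45526189, strand R, all 6 probes were members, with medians of −3.73, −3.74, −5.56 and −5.11 in LIF_serum and −4.03, −3.81, −3.96 and −4.48 on EpiSC arrays against −2.74, −2.21, −2.37 and −2.16 in 2i_LIF and −2.50, −2.24, −1.77 and −2.44 in 2iSB_LIF. LIF_serum arrays 3 and 4 were the dimmest there. Their medians lay below the background floors of these arrays, −4.44 and −4.99, so the size of that gap is not measured. The median rise was 1.27 within slide 1 and, as measured, 3.33 within slide 2. At chr2:153163620-153170845, strand R, 8 of 11 probes were members, with medians of −3.40, −3.83, −4.55 and −4.38 in LIF_serum, −3.42, −2.60, −2.34 and −2.02 in 2i_LIF and −2.59, −2.41, −1.97 and −2.23 in 2iSB_LIF. The median of LIF_serum array 3 lay below its background floor of −4.44 there. EpiSC arrays lay among the ground-state ones, at −2.74, −2.77, −2.69 and −2.92, and 2i_LIF array 1 came down to the LIF_serum level. All 5 opposite-strand probes that passed at this locus were higher too, 1 of them a member. At chr4:40840725-40860875, strand F, the 4 member probes had medians of −3.82, −3.84, −3.15 and −3.28 in LIF_serum and −3.82, −3.68, −3.69 and −3.81 on EpiSC arrays, and of −1.78, −2.02, −1.55 and −2.39 in 2i_LIF and −2.31, −1.15, −1.52 and −1.91 in 2iSB_LIF. Here the slide 2 LIF_serum arrays were the brighter ones, and ground-state arrays did not overlap the others.

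Some of the higher loci lay near each other. At chr5:111538420-111603075, 3 loci on strand F held 7 higher probes with a median difference of 2.12, and at chr13:74568375-74756950, 4 loci held 5 with 1.35. At chr14:62254361-62307496, strand R, 5 probes had medians of −4.29, −4.37, −5.10 and −4.84 in LIF_serum, −2.71, −2.28, −2.06 and −1.99 on EpiSC arrays, −3.21, −2.68, −1.81 and −1.44 in 2i_LIF and −2.52, −2.82, −3.0 and −3.68 in 2iSB_LIF, so EpiSC and ground state lay together above serum. The median of LIF_serum array 3 lay below its background floor of −4.44. Of 13 same-strand probes that passed at this locus, only 7 were above LIF_serum. At chr8:124355710-124401160, strand R, 4 probes were at −2.87, −2.80, −2.66 and −2.71 in LIF_serum and between −1.98 and −0.41 on the ground-state arrays. Probe A_30_P01025357 at chr6:57583950-57624216, strand F, varied widely instead, at 1.87, 1.35, −3.29 and −1.65 in 2i_LIF and −2.90, 1.16, 1.90 and −0.60 in 2iSB_LIF, and overlapped the LIF_serum arrays at −3.32, −1.72, −1.47 and −1.82.

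Other named rises measured on all 12 arrays were A_30_P01024866 at chr4:94121118-94148348, strand R (1.91), A_30_P01023578 at chr14:62294849-62301165, strand R (1.65), and A_30_P01022784 at chr16:21794418-21809113, strand F (1.65). For 3 higher probes LIF_serum gave only a bound. A_30_P01024620 at chr10:18036490-18059965, strand F, was at least 3.38-fold higher in 2i_LIF and 2.74-fold in 2iSB_LIF. A_30_P01027244 at chr12:33606225-33638225, strand F, was at least 2.49-fold and 2.65-fold higher, and A_30_P01025078 at chr17:45525567-45526189, strand R, at least 2.54-fold and 2.31-fold. At chr6:100518251-100519726, strand R, the medians of 3 probes were −3.67, −4.05, −6.28 and −7.14 in LIF_serum. The slide 2 lines lay below the slide 1 lines. They also lay below the background floors of their arrays, −4.44 and −4.99, so the size of that gap is not measured. The medians were −2.38, −2.46, −2.52 and −2.92 on EpiSC arrays. They were −2.71, −1.70, −2.29 and −2.43 in 2i_LIF and −2.99, −2.66, −2.32 and −2.69 in 2iSB_LIF.

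**Figure D2:**
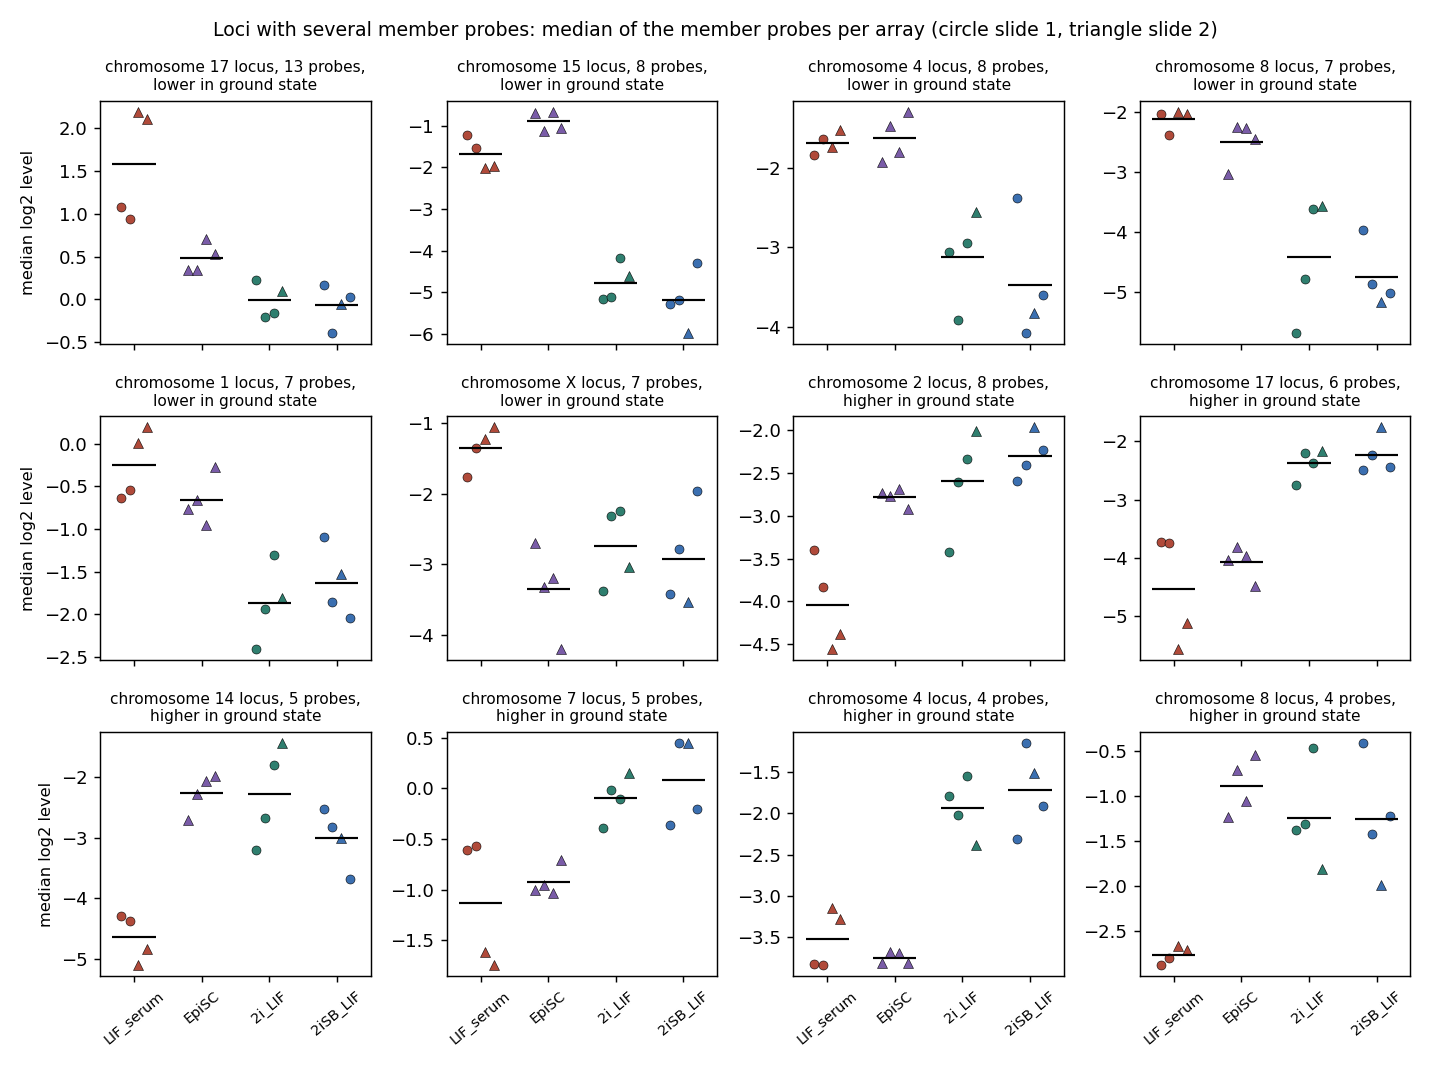
Median log2 level of the member probes at 12 loci, 1 point per array and 4 arrays per group, with circles for slide 1, triangles for slide 2 and a line at the group mean. The 6 lower loci end below LIF_serum and the 6 higher loci above it in both ground-state groups, while EpiSC lies with LIF_serum at some loci and with ground state at others.

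The differences within slides make up the means that chose the probes, so the rule favours like directions. All 294 probes lay on the same side of LIF_serum in both slides, against 64.0% of the 5234 probes, and 193 of them, 76 higher and 117 lower, differed by at least 1 in both, against 7.20% of the 5234. A difference of 1 was reached in 1 slide by 100 probes and in neither by 1. Medians were 1.25 and −1.32 for higher and lower probes within slide 1, and 1.77 and −2.07 within slide 2, where each side had 2 arrays. The LIF_serum pairs differed by at least 1 at 92 of the 294 probes. Among these, the slide 2 pair lay farther from ground state at 45 of 49 higher and 37 of 43 lower probes. With LIF_serum arrays 1 and 2 alone as the serum group, the rule took 115 higher and 262 lower probes, and with arrays 3 and 4 alone 647 and 319. Under the normexp background correction, only 43 higher and 87 lower probes met the rule, although all 294 kept their direction.

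**Figure D3:**
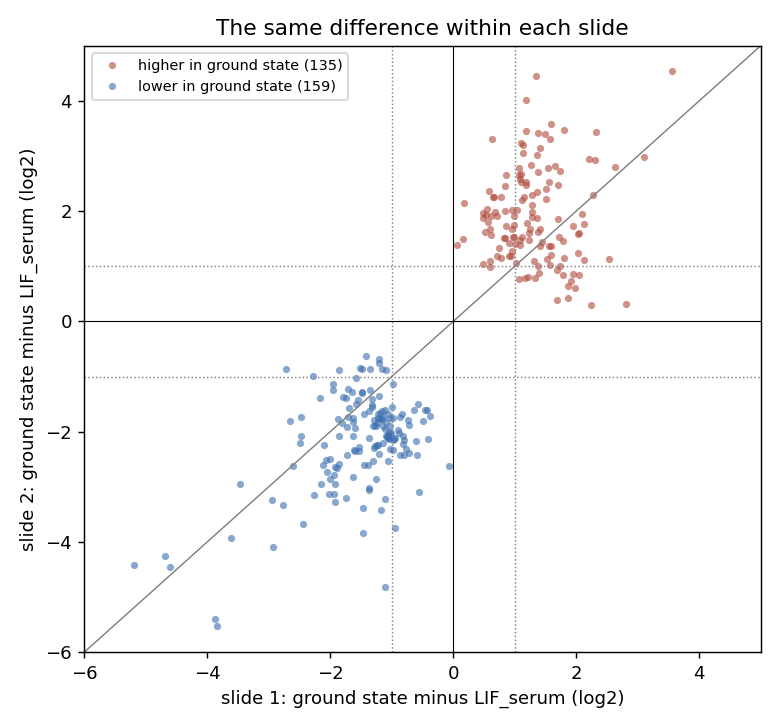
Ground state minus LIF_serum for each of the 294 probes within slide 1 (x, 2 LIF_serum and 6 ground-state arrays) and within slide 2 (y, 2 and 2 arrays), in log2 units, with dotted lines at ±1 and a grey line of equal values. All points fall in the 2 quadrants of like sign, and many lie farther from 0 on slide 2.

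EpiSC lay with serum for some members and with ground state for others. Its mean lay within 1 of LIF_serum and not of ground state for 123 probes (54 higher, 69 lower), and within 1 of ground state and not of LIF_serum for 127 (57 higher, 70 lower). It was within 1 of both for 40, between them for 1 and outside both for 3. The rule had removed probes whose EpiSC mean stood 1 or more above or below all other means, so these counts describe the chosen probes only. Since all EpiSC arrays were on slide 2, the same count was made against slide 2 arrays alone. There 43 higher and 56 lower probes lay with LIF_serum and 63 and 69 with ground state. Members with EpiSC nearest to serum were at chr11:51854060-51903278 (strand F, −0.36 in LIF_serum and −0.36 on EpiSC arrays), chr4:11893711-11921443 (strand F, −1.55 and −1.54) and chr1:138592780-138622719 (strand F, −2.63 and −2.64).

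**Figure D4:**
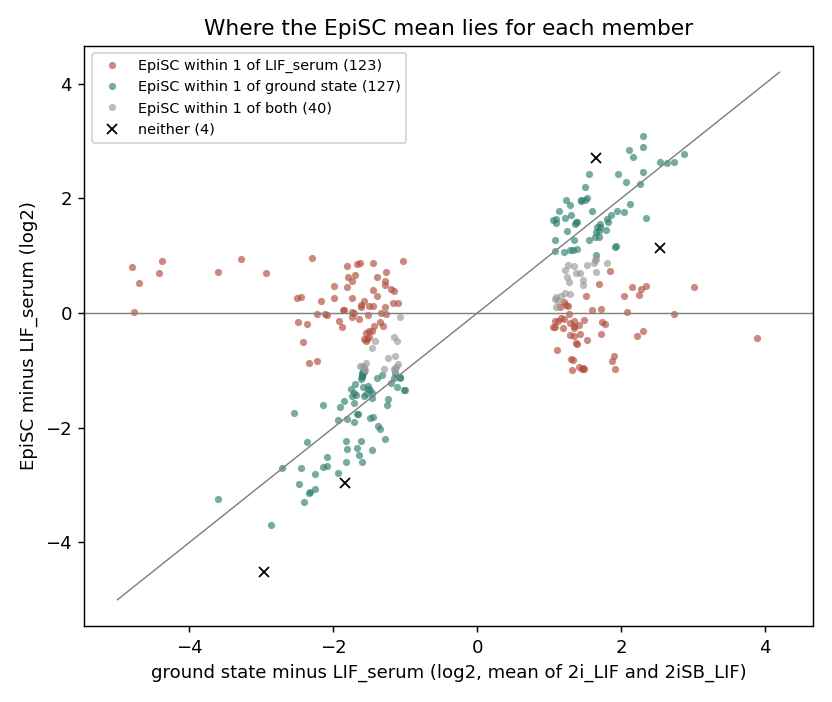
EpiSC minus LIF_serum (y) against ground state minus LIF_serum (x) for each of the 294 probes, in log2 units of group means, n = 4 arrays per group. Points near the horizontal line have EpiSC at the serum level (123) and points near the diagonal have EpiSC at the ground-state level (127).

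The ground-state media were compared with each other, which asks what SB431542 adds to 2i. The rule used both means and required both to pass in the same direction, which favours probes on which the media are alike, so nothing is read from the members' counts here. The difference was tested with limma over all 33275 probes above background in at least 1 group. No member passed an adjusted p of 0.05 and a 2-fold difference by limma with Benjamini-Hochberg adjustment. Over all probes 6 were higher in 2iSB_LIF (0.0180%) and 18 lower (0.0541%). At an unadjusted p under 0.05 there were 11 members (3.74%) and 1611 probes in all (4.84%). The members' differences, 2iSB_LIF minus 2i_LIF, ranged from −1.15 to 1.13 with a median of 0.02, a median SE of 0.35 and 155 of 294 above 0. The missing calls do not show that both media act alike. The median size of the difference was 0.19 in members and 0.16 over all probes tested. In 7 members the size was at least 1, a count given without a share over all probes and not read as a result. These 7 included both members at chr19:46422690-46423478, strand R, where 2 of 3 same-strand probes passed the background condition. Both were lower in 2iSB_LIF, by 1.01 (SE 0.39) and 1.08 (SE 0.58). Also among the 7 was A_30_P01021193 at chr5:111565658-111566257, strand F, which was higher by 1.01 (SE 0.44).

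**Figure D5:**
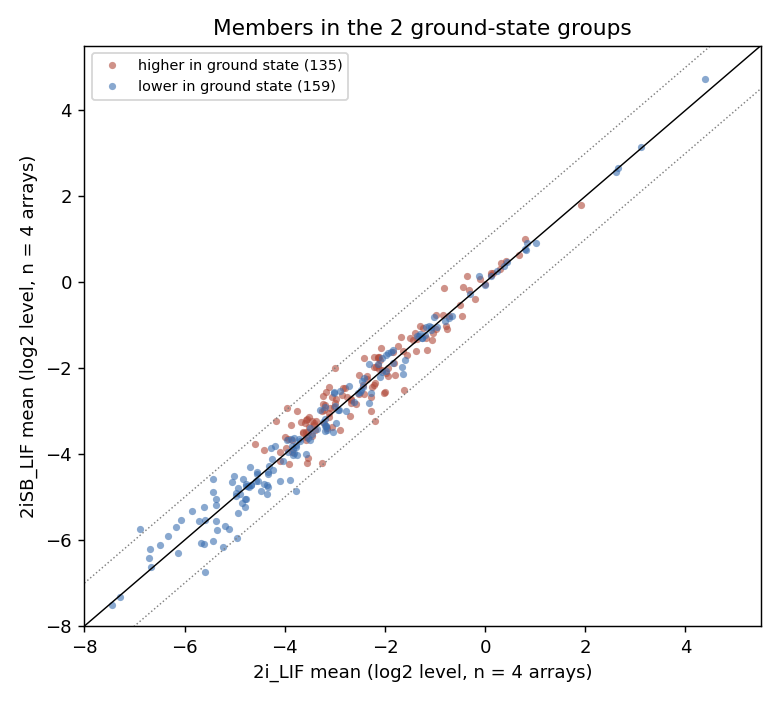
Mean log2 level of each of the 294 probes in 2i_LIF (x) and 2iSB_LIF (y), 4 arrays each, with a solid line of equal levels and dotted lines 1 above and below it. All but 7 probes lie between the dotted lines.

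By chromosome, the X held 24 members, 10 higher and 14 lower, at 13 loci. They were 8.16% of the members, while the X held 3.73% of the 5234 probes, and 12.3% of the X probes that passed were members, the highest share of any chromosome. The largest X locus was chrX:50087925-50101700, strand R, where 7 of 8 probes were members with medians of −1.77, −1.35, −1.22 and −1.07 in LIF_serum, −2.70, −3.32, −3.19 and −4.19 on EpiSC arrays, −3.37, −2.31, −2.25 and −3.04 in 2i_LIF and −3.42, −2.79, −3.53 and −1.97 in 2iSB_LIF. At chrX:165792277-165807952, strand F, 4 members were at −1.11, −1.11, 0.06 and 0.29 in LIF_serum, −0.61, −2.16, −2.89 and −2.66 in 2i_LIF and −2.46, −2.29, −1.27 and −1.34 in 2iSB_LIF, and 2i_LIF array 1 overlapped the serum arrays. Sex chromosome genes also differed between the groups, and 2 of 3 tested were called lower in each ground-state group by limma. The groups hold different lines, so line and medium cannot be told apart for these calls. The log2 of the summed signal of the list was −2.99 to 4.36 in LIF_serum and −0.27 to 4.31 on EpiSC arrays. It was −5.05 to −4.08 in 2i_LIF and −4.99 to −4.05 in 2iSB_LIF. The Y-linked gene Eif2s3y was at 3.61, −4.26, 3.91 and 4.12 on LIF_serum arrays 1 to 4 and on no ground-state array was it well above background. Xist, the RNA that silences an X chromosome, was at −5.61, −1.89, −6.60 and −7.16 there and on no ground-state array above background. The part of these genes, or of the sex of the lines, in the differences of the X members and of the other members was not tested.

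Long noncoding RNAs with gene names were mostly not called. Against LIF_serum, limma called 934 of 15510 named genes higher (6.02%) and 1798 lower (11.6%) in 2i_LIF, and 1029 higher (6.63%) and 2002 lower (12.9%) in 2iSB_LIF. Of 47 listed noncoding RNAs 22 were tested, with 2 higher and 0 lower in 2i_LIF and 2 and 1 in 2iSB_LIF, and median differences of −0.09 and 0.04. Platr14, a pluripotency-associated transcript, rose by 1.52 (SE 0.47, adjusted p = 0.0315) in 2i_LIF and 1.71 (SE 0.47, adjusted p = 0.0158) in 2iSB_LIF, by limma. Dleu2, the host of a microRNA cluster, rose by 1.40 (SE 0.32, adjusted p = 0.00597) in 2i_LIF and 1.11 (SE 0.32, adjusted p = 0.0197) in 2iSB_LIF. Peg13, an imprinted RNA, passed only in 2iSB_LIF, at −1.41 (SE 0.47), against −0.86 (SE 0.47) in 2i_LIF.

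The named genes whose level over the 16 arrays was most like that of a leading member were found by Pearson r, as a description. The arrays fall into groups, so r mainly reflects group levels. For the largest rise, A_30_P01022605 on chromosome 11, it was Gm53 (r = 0.995), a long noncoding RNA that RefSeq also places on chromosome 11, followed by Nqo1 (r = 0.976). Gm53 was at −4.74, −4.70, −5.33 and −4.78 in LIF_serum and −0.76, −0.43, −1.05 and −0.53 in 2i_LIF. For A_30_P01033043, at the chromosome 15 locus above, it was Snhg18 (r = 0.981), a small nucleolar RNA host transcript also on chromosome 15, at −0.60, −0.79, −1.34 and −1.23 in LIF_serum and −5.96, −5.30, −4.71 and −4.15 in 2i_LIF. Whether these probes and genes are the same transcripts was not tested, since their positions are in different genome builds. Other leading members were most like Usp4 (r = 0.977, chr5:143200557-143204033), Pmp22 (r = 0.98, chr10:81816994-81863610), Sos1 (r = 0.915, chr2:153163620-153170845) and Olfr1372-ps1 (r = 0.972, chr17:26911397-26917047).

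Markers of other cell types moved with the same comparison. In the naive list, 5 of 14 genes were higher in 2i_LIF and 3 in 2iSB_LIF with none lower, among them Tbx3, a naive transcription factor, at 1.73 (SE 0.30, adjusted p = 0.000876) in 2i_LIF and 1.54 (SE 0.30, adjusted p = 0.00175) in 2iSB_LIF. Of 8 primed epiblast genes 5 were lower in each medium and 1 was higher in 2i_LIF, with Pou3f1, a transcription factor of the epiblast, at −3.25 (SE 0.27, adjusted p = 2.29e-06) in 2i_LIF and −3.68 (SE 0.27, adjusted p = 6.83e-07) in 2iSB_LIF, by limma. Of 20 fibroblast genes 13 were lower in 2i_LIF and 16 in 2iSB_LIF (medians −2.98 and −3.57, against 0.02 and 0.02 over all genes). The log2 of their summed signal was 8.52 to 8.66 in LIF_serum, 9.71 to 10.07 on EpiSC arrays, 7.25 to 7.41 in 2i_LIF and 6.69 to 7.70 in 2iSB_LIF. Within LIF_serum the sum was 8.59 in the slide 1 pair and 8.59 in the slide 2 pair, but single genes differed: 16 of the 20 were higher on both slide 1 arrays, such as Col1a1 at 4.65, 4.47, 1.38 and 1.81 on arrays 1 to 4, and 3 were higher on both slide 2 arrays, such as Sparc at 7.46, 7.34, 8.01 and 8.03. In all, 7 of 10 simple-epithelium genes were lower in each medium, with a summed level of 6.26 in the slide 1 and 8.04 in the slide 2 LIF_serum pair, and 5 of 10 primitive endoderm genes, with 5.31 and 6.89. Their part in the members' differences was not tested, and in bulk RNA fewer cells of a type and less RNA per cell cannot be told apart.

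The other lists were read once. Of 8 tested 2-cell-like genes 6 were lower in both media, Zscan4c at −4.71 (SE 0.89, adjusted p = 0.00164) in 2i_LIF and −5.39 (SE 0.89, adjusted p = 0.000539) in 2iSB_LIF by limma. Of 13 ERK targets 4 and 5 were lower, of 9 Wnt targets 1 was higher and 3 lower in each medium, and of 5 core pluripotency genes 2 were lower in each. Of 6 trophectoderm genes 1 was higher in 2i_LIF and 3 in 2iSB_LIF, with 1 lower in each.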

How the data were processed

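RNA of 16 mouse cell lines was measured on 16 single-colour Agilent arrays, with groups and line numbers taken from the labels. The deposited scanner files hold intensity values, per the file headers made with Agilent Feature Extraction 10.7.1.1 and positioned on mm9, where the processed signal is background-subtracted and spatially detrended. The authors also deposited a table of log2 values, which the submitters' processing notes tie to Feature Extraction and limma. How it was normalized is not stated in the labels, and it served as an alternative.

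Outlier spots by the scanner's mark (100 to 321 on an array) were left out, and several spots of a probe (432 probes) were averaged. The log2 processed signal less the 75th percentile of the array was used throughout. Probes were named through RefSeq accessions (GRCm38), which gave 27656 gene-named probes for 20972 symbols, 16194 position-named probes in 4610 regions and 11831 others. A linear model of 4 group means over 16 arrays was fitted with limma 3.58.1 (R 4.3.3) to probes well above background on all 4 arrays of a group, with Benjamini-Hochberg adjustment, and a call needed an adjusted p under 0.05 and a 2-fold difference. Each gene was read by its probe of highest mean signal. The fit was tested on simulated data. The number of arrays limits the precision, and p-values measure the spread between lines of a group. The absolute scale, and whether total RNA per cell differs between groups, are unknown.

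The members and gene lists were chosen with earlier results of these data known. Named members are, in each direction, the 10 largest differences among probes measured on all 12 LIF_serum and ground-state arrays, the 3 largest bounds, up to 5 regions with most members, those nearest the threshold, and the 3 each whose EpiSC mean lies nearest LIF_serum or ground state. A bound sets a dim array at its floor, the lowest signal well above background on that array. Unmarked signals above the floor, such as those of A_30_P01027244 on LIF_serum arrays 1 and 2, were kept as measured. A bound therefore depends on this choice of floor and is not a strict limit. Alternatives were quantile normalization, median centring, normexp background (offset 50, on median signals), the deposited table, other filters and thresholds, slides and arrays left out. Weighting both slides alike was added after seeing the data.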

Additional observations from a re-analysis of the deposited data

Results flagged for a closer look

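Of 328 sets of 4 arrays (82 named probes in 4 groups), 11 held an array whose gap to the nearest other array was above Dixon's 95% critical value for 4 samples, as a share of the range of the set. Chance flags about 1 in 20 sets, a larger share than was seen. EpiSC array 4 was flagged as the lowest of its group in 3 probes. A_30_P01018964 (chr2:153163620-153170845, strand R) was at −2.38 on EpiSC array 4, with the others of its group between −2.08 and −2.03. A_30_P01022297 (chr14:55671783-55680316, strand R) was at −2.37 on EpiSC array 4, with the others of its group between −2.11 and −2.07. A_30_P01032418 (chr14:55671783-55680316, strand R) was at −0.93 on EpiSC array 4, with the others of its group between −0.59 and −0.52. 2i_LIF array 4 was flagged as the lowest in 2 probes. A_30_P01033423 (chr4:40858753-40859228, strand F) was at −2.47 on 2i_LIF array 4, with the others of its group between −1.45 and −1.37. A_30_P01032405 (chr1:138592780-138622719, strand F) was at −4.39 on 2i_LIF array 4, with the others of its group between −2.60 and −2.38. 2i_LIF array 2 was flagged as the lowest in 2 probes. A_30_P01026449 (chr6:39205913-39248468, strand R) was at −3.76 on 2i_LIF array 2, with the others of its group between −3.05 and −2.98. A_30_P01020776 (chr4:11899775-11931875, strand F) was at −6.59 on 2i_LIF array 2, with the others of its group between −4.46 and −4.39. Arrays of 2iSB_LIF stood apart in 4 probes. A_30_P01031661 (chr11:55315017-55322092, strand R) was at −2.13 on 2iSB_LIF array 2, with the others of its group between −2.50 and −2.45. A_30_P01024606 (chr5:35975265-35982561, strand F) was at 3.75 on 2iSB_LIF array 1, with the others of its group between 2.09 and 2.32. A_30_P01028130 (chr17:26911397-26917047, strand F) was at −1.62 on 2iSB_LIF array 2, with the others of its group between −1.22 and −1.14. A_30_P01018650 (chr15:32167516-32174427, strand R) was at −5.15 on 2iSB_LIF array 4, with the others of its group between −7.23 and −7.06. The last of these probes lies at the locus with the largest median fall among loci of 3 or more members, and all its 2iSB_LIF arrays remained below LIF_serum. What set these arrays apart was not tested.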

How the results depend on the processing

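All 294 probes kept their direction under quantile normalization, median centring, normexp and the deposited table, but which probes met the rule moved with the setting. Higher and lower probes numbered 43 and 87 under normexp (26 and 76 shared), 321 and 431 with well above background on any array, 325 and 456 with no such filter, 51 and 86 at a difference of 1.5, 16 and 31 at 2, and 305 and 242 without the EpiSC condition. Within slide 1 they numbered 310 and 327 (75 and 112 shared) and within slide 2 275 and 400 (99 and 118 shared). Slide 1 held no EpiSC array, so no EpiSC condition applied within it. Its counts therefore stand beside the 305 and 242 without that condition. Within a slide, the background condition covered the arrays of that slide alone. With the slide 1 LIF_serum arrays alone they were 115 and 262, and with the slide 2 pair alone 647 and 319. Leaving out 1 array gave 113 to 222 higher and 148 to 201 lower, with 222 higher without LIF_serum array 1, the only such count outside 1.5 times. Quantile normalization (175 and 163), median centring (152 and 140), the deposited table (139 and 129), outlier spots kept (137 and 160) and both slides weighted alike (118 and 178), the last chosen after seeing the data, stayed within 1.5 times. Of 720 recomputed differences of 36 named probes none reversed and 38 moved by over 1 SD.

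Calls between 2iSB_LIF and 2i_LIF, 24 over all probes, were 15 under normexp, 15 in the deposited table, 40 with passage as a covariate, 9 with the ground-state groups alone, 32 with slide as a block, and 15 to 28 without 1 array (15 without 2iSB_LIF array 3). With the replicate block, 13 probes were called. Arrays of the same number did not deviate together (correlations −0.57 to 0.34), so the numbers were not taken as pairs. Calls of list genes, 56 in 2i_LIF and 60 in 2iSB_LIF, ranged over 40 to 62 and 47 to 62. The comparison of genes next to the regions was not run, since no gene positions in mm9 were used here. Signal near background limits the members, since 139 of 294 were measured on all 12 arrays.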
